A study of Mus musculus with 21 samples.

Results

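The Cyp3a and Cyp4 families of cytochrome P450 were taken as every protein-coding autosomal gene of the mouse mm9 annotation (GENCODE vM1) whose symbol begins with Cyp3a or with Cyp4, a letter and a number. This gave 26 genes of 21418, namely 9 Cyp3a, 6 Cyp4a, 8 Cyp4f and 1 each of Cyp4b, Cyp4v and Cyp4x. Open chromatin was followed at the 72 regions, of 68362 in the series, that overlap these genes or lie within 10 kb of them. The rule uses gene symbols and distance and no difference between livers, although the regions are themselves peaks called in these livers.

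Cyp3a enzymes oxidise steroids, bile acids and a large share of foreign compounds in the liver, and the nuclear receptors PXR and CAR induce several of them. Cyp4 enzymes hydroxylate fatty acids and eicosanoids at or near the terminal carbon, and PPARα induces the mouse Cyp4a10 and Cyp4a14 genes. Several members differ between male and female mouse liver under the control of growth hormone, which reaches the male liver in pulses and activates the transcription factor STAT5 there.

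Livers of untreated, pituitary-intact male CD-1 (ICR) mice aged 8 to 10 weeks, 1 mouse each, had been profiled by DNase-seq, and the deposited peak lists were used. In DNase-seq, DNase I cuts accessible DNA and the released fragments are sequenced, so that open chromatin appears as a peak. An electrophoretic mobility shift assay on part of each liver had classed it as STAT5_High (8 livers) or STAT5_Low (10 livers), that is, by its level of active STAT5 at sacrifice. A further 3 livers, titled outlier by the submitters because of their DNase profile, were not analysed here, so the classes compared were partly selected on the kind of data compared, and the labels of 2 of these 3 livers conflict.

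Libraries held 12890880 to 23395665 tags, with a median of 16658552.5 in STAT5_High and 18182142.5 in STAT5_Low livers. STAT5_High replicate 4 stood apart with the shortest peak list (18673 peaks) and the lowest median pileup per 1000000 tags at the regions open in every liver. Hepatocytes were checked by peaks within 1 kb of a start: 5 of 6 hepatocyte marker genes had such a peak in all 18 livers, and Serpina1a had none. None of 2 macrophage and none of 3 lymphocyte markers had a peak in any liver. Another listed macrophage marker, Adgre1, was not among those counted. Of 3 endothelial markers, Stab2 had one in 18 livers, Kdr in 4 and Pecam1 in 1, and of 3 stellate markers Reln had one in 15 and Des and Lrat in none. Fewer cells of a type and less open chromatin per cell cannot be told apart in whole liver. Each liver is 1 mouse and the labels describe no repeat library.

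The sequences below carry the main observations on the family and are given from the mm9 reference, 5′ to 3′ on the strand of the gene named. The first is the centre of the region in an intron of Cyp4f13 that differed between the classes (chr17:33072310-33072609, minus strand). Its capitals mark the 146 bases between the lowest and the highest peak summit of the 18 livers.
Cyp4f13 intron: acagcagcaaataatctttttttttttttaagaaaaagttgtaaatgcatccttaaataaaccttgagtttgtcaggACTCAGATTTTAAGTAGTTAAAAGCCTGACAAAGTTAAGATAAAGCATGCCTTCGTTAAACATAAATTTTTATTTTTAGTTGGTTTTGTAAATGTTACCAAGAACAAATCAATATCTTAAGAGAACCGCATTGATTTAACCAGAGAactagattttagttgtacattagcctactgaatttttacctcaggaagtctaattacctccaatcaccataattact
The second set shows how alike the members of a gene cluster are. The regions about 9 kb upstream of Cyp3a25 and Cyp3a59 are copies in opposite orientation, lying between the genes (chr5:146829836-146830126, minus strand, and chr5:146881764-146882063, plus strand), and their capitals mark the bases that do not match the other copy, 21 alignment columns in all.
Cyp3a25 upstream: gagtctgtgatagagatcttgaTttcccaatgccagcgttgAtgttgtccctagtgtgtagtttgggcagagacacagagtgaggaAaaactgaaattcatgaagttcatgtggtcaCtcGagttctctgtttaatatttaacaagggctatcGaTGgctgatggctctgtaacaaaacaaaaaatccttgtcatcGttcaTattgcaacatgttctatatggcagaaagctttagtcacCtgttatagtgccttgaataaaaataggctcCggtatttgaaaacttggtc
Cyp3a59 upstream: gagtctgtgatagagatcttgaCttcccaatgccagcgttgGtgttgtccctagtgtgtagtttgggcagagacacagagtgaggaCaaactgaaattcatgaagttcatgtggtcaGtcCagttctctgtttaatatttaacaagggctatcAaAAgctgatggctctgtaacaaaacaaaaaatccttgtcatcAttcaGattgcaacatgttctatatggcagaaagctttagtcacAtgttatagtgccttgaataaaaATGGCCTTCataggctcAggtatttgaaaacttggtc
The promoters of Cyp3a41a (chr5:146531667-146531962, minus strand) and Cyp3a41b (chr5:146345550-146345849, minus strand) are 98.3% identical, and capitals mark the 5 alignment columns that differ.
Cyp3a41a promoter: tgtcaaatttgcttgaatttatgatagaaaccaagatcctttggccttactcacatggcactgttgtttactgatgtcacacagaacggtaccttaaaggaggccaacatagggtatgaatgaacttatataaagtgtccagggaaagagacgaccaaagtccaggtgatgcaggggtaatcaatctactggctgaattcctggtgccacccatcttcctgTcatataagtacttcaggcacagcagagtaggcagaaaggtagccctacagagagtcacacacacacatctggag
Cyp3a41b promoter: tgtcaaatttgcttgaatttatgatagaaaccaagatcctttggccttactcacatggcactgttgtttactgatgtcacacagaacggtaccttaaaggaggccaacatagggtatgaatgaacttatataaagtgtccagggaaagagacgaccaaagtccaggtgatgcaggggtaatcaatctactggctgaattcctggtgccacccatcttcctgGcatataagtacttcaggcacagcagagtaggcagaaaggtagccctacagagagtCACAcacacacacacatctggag

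Of the 72 family regions, 11 (15.3%) had a peak in all 18 livers, 12 had one in 14 to 17 livers, 18 in 5 to 13 livers and 31 in 1 to 4 livers, 16 of them in 1 liver. Over all 68362 regions the share with a peak in every liver was 17.2%. A region was placed by what it overlaps: 20 regions lay within 1 kb of a transcription start, 9 overlapped a coding exon, 3 a UTR and 18 an intron, and 22 were intergenic. A promoter region had a peak in at least 1 liver at 16 of the 26 genes (61.5%) and in all 18 livers at 5 genes (19.2%), against 55.7% and 29.8% of all protein-coding autosomal genes. These 5 were Cyp3a11, Cyp3a13, Cyp4f14, Cyp4f15 and Cyp4v3.

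**Figure D1:**
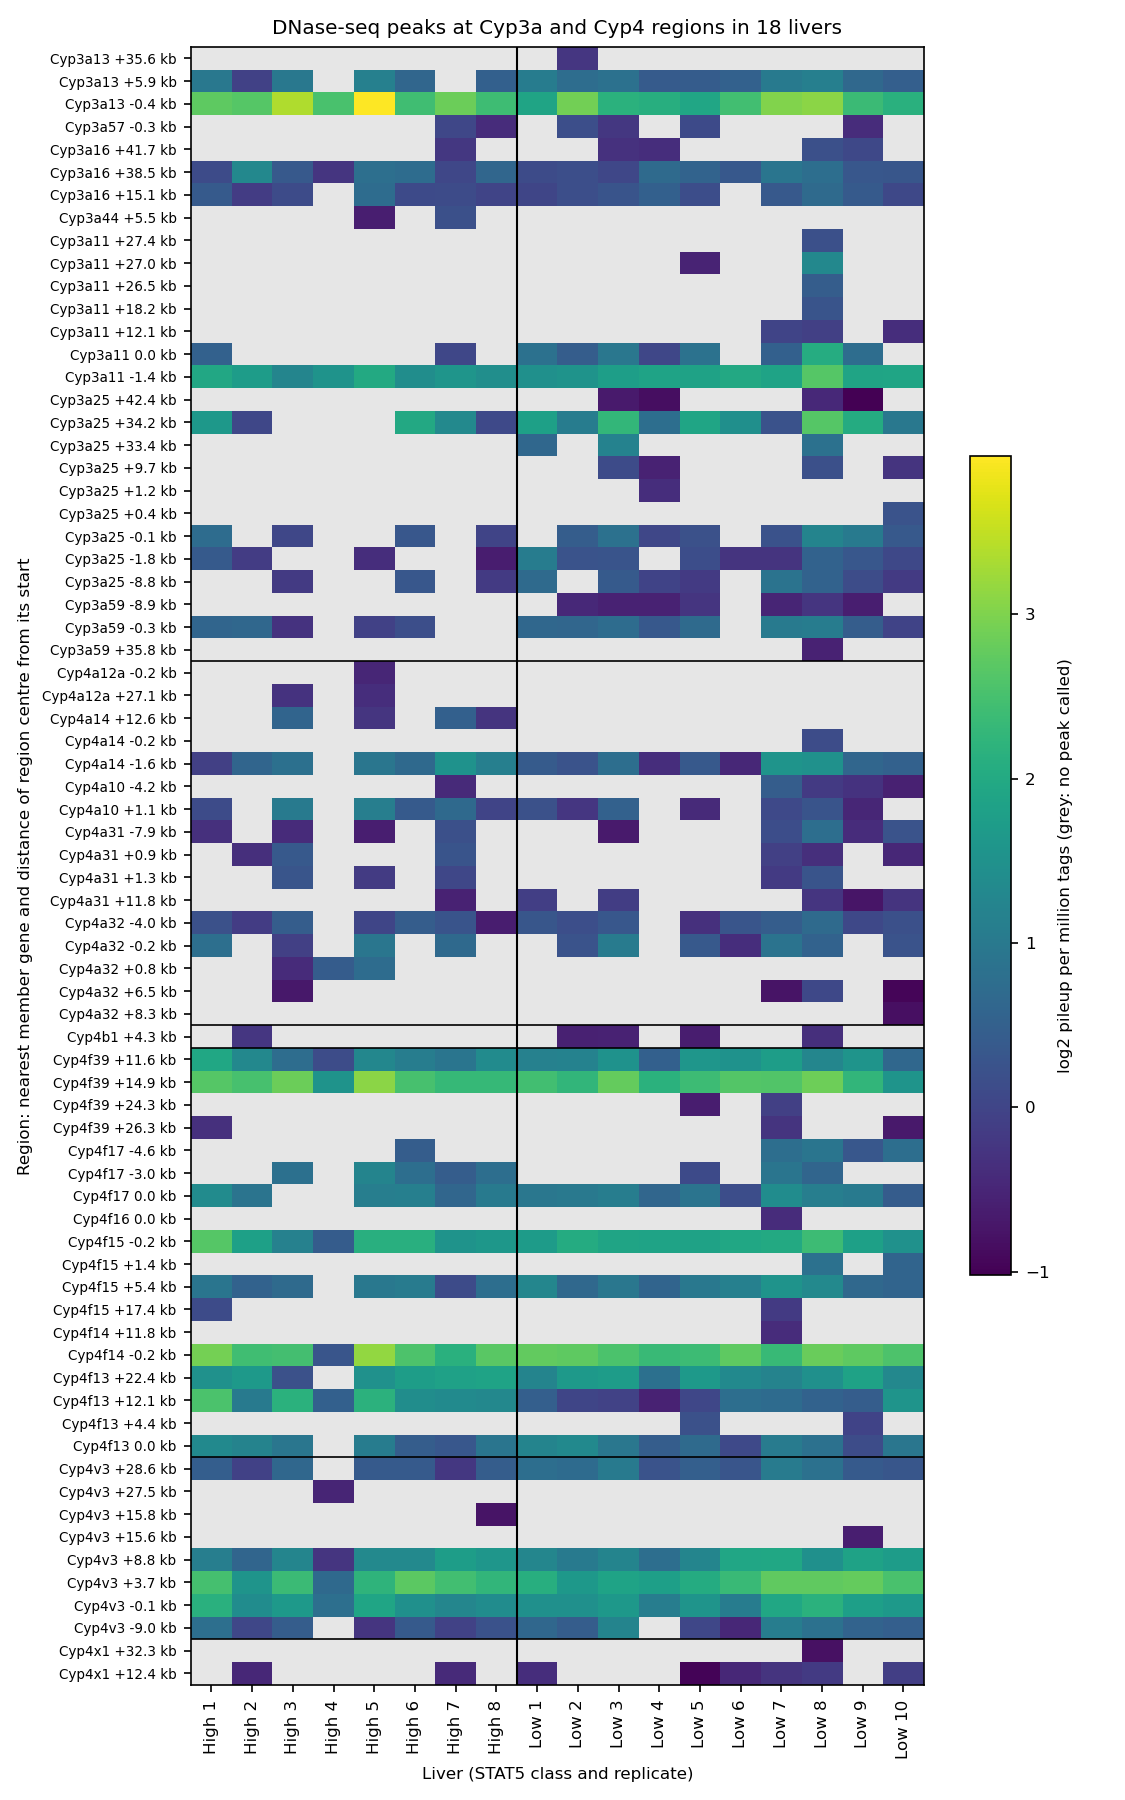
Each row is one of the 72 family regions, named by its nearest member gene and the distance in kb of its centre from the start of that gene, and each column is a liver. Colour gives the log2 of the scaled pileup (reads at the summit per 1000000 tags) and grey means that no peak was called. The rows of Cyp3a13, Cyp4f14, Cyp4f15 and Cyp4v3 near the start are filled in all 18 livers, whereas most rows of Cyp3a25 and the Cyp4a genes are filled in some.

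Family regions were compared between the classes in their presence, by Fisher's exact test (two-sided) on the number of livers with a peak, and in their scaled pileup, the number of extended reads at the summit per 1000000 tags, with limma on the log2 scale. Both tests ran over the whole table, p-values were adjusted by Benjamini and Hochberg, and the threshold was an adjusted p of 0.05. Of the 18 family regions with a peak in 5 to 13 livers, Fisher's exact test called 0 in either direction, while it called 0.979% of 15631 regions higher in STAT5_High and 0.134% higher in STAT5_Low. At 5 livers with a peak, the smallest p that Fisher's exact test can give is 0.00654, too large to be called here. The most uneven split to STAT5_Low at 7 livers, 0 against 7, had an adjusted p of 0.115 by that test. The absence of calls is therefore no measure of likeness at regions with few livers. At an unadjusted p under 0.05, 0 family regions leaned to STAT5_High and 1 leaned to STAT5_Low, against 940 and 1265 of the 15631 regions. Of the 11 family regions with a peak in all livers, limma called 1 higher in STAT5_High and 0 higher in STAT5_Low, and of all 11748 such regions it called 3.86% and 0.238%. Of these 481 calls, 94.2% were higher in STAT5_High, a share that was 85.6% with libraries centred on their medians and 83.0% with quantile normalization. At an unadjusted p under 0.05 the counts of family regions were again 1 and 0, against 910 and 668 of the 11748 regions. The median log2 difference, STAT5_High minus STAT5_Low, was -0.17 over the 11 family regions and -0.17 over all regions tested, so a difference of that size is the level of the whole table on this scale.

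Within the Cyp4f subfamily, whose members hydroxylate leukotrienes and other long-chain fatty acids, the called region lay in an intron of Cyp4f13 (ENSMUSG00000024055.8; chr17:33071724-33072805, 12.1 kb downstream of the start of the gene). The scaled pileup was 5.86, 2.05, 4.49, 1.41, 4.54, 2.68, 2.57 and 2.47 in STAT5_High replicates 1 to 8. In STAT5_Low replicates 1 to 10 it was 1.40, 1.02, 0.973, 0.684, 1.02, 1.72, 1.65, 1.46, 1.37 and 2.95. The 3 highest livers were STAT5_High, the lowest 6 were STAT5_Low, and the classes overlapped through STAT5_High replicate 4 and STAT5_Low replicate 10. The medians were 2.62 and 1.38, the log2 difference was 1.16 ± 0.25 (SE, n = 8 and 10), or 2.24-fold, and limma gave an adjusted p of 0.0011. Relative to the median of all tested regions the log2 difference was 1.34.

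The direction at the Cyp4f13 intron was the same in all 3 collections, the groups that the label prefixes form and whose meaning the labels do not give. The difference in mean log2 scaled pileup was 1.80 in G74A (2 against 5 livers), 0.86 in G92 (3 against 2) and 0.51 in G99 (3 against 3). The authors' fold enrichment, the ratio of the summit to the local background within a library, ran from 7.10 to 12.5 (median 9.02) in STAT5_High and from 3.54 to 9.54 (median 6.13) in STAT5_Low livers. The authors' lists on pooled reads gave a scaled pileup of 3.03 for STAT5_High and 1.32 for STAT5_Low. The 18 summits fell within 145 bases, as the capitals of the sequence above show, and every 40-base word of the region occurs once in the genome. It holds no match to the STAT5 motif TTCNNNGAA, and its mean pileup stood at the 19.2 percentile of the regions with a peak in every liver.

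Of the 5 regions within 10 kb of Cyp4f13, 1 was the promoter of Cyp4f14, which is given below. Besides it and the called intron region, none of the other 3 entered a main test, because their peaks were in 17 livers or in 2. At the promoter of the gene (chr17:33083994-33084764) 7 STAT5_High livers and 10 STAT5_Low livers had a peak, with median scaled pileups of 1.91 and 1.85. A region near the 3′ end, next to the start of a short annotated transcript (chr17:33061444-33062510), had a peak in the same numbers of livers, with medians of 3.20 and 2.66. This region also lies within 10 kb of Cyp4f14, upstream of the start of that gene. The liver without a peak was STAT5_High replicate 4 at the promoter and at the 3′ region alike. When regions with a peak in 14 or more livers were tested with limma, the log2 difference was 0.12 ± 0.21 (SE) at the promoter, with an adjusted p of 0.811, and 0.05 ± 0.22 at the 3′ region, with an adjusted p of 0.929. The third, in an intron 4.4 kb downstream of the start, had a peak in 2 STAT5_Low livers.

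**Figure D2:**
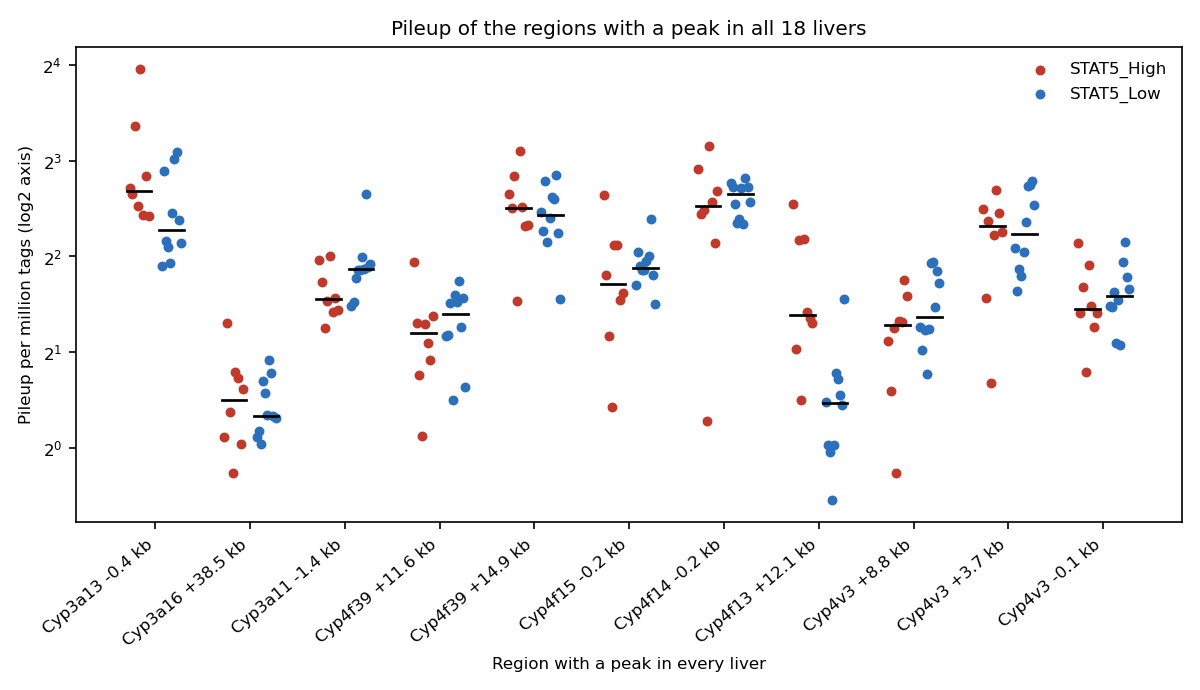
Scaled pileup, in reads at the summit per 1000000 tags (log2 axis) at the 11 family regions with a peak in all 18 livers, with 1 point per liver and a black line at the median of the class. STAT5_High points lie above most STAT5_Low points at the Cyp4f13 region 12.1 kb from the start, with medians of 2.62 and 1.38, and the classes overlap at each of the 11 regions.

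Elsewhere in Cyp4f, promoters open in every liver showed no called difference. At Cyp4f14, an enzyme of leukotriene B4 inactivation in mice, the promoter region (chr17:33053709-33054727) had scaled pileups of 1.22 to 8.90 (median 5.76) in STAT5_High and 5.07 to 7.06 (median 6.27) in STAT5_Low livers, with a log2 difference of -0.26 ± 0.25 (SE) and an adjusted p of 0.597 by limma. STAT5_High replicate 4 was the lowest of all livers there, and without it the sign turned, to 0.03. At Cyp4f15 (chr17:32821999-32822760) the values were 1.35 to 6.23 (median 3.28) and 2.84 to 5.23 (median 3.68), with a log2 difference of -0.22 ± 0.23 and an adjusted p of 0.622. Without STAT5_High replicate 4 the difference was -0.04, and on fold enrichment it was -0.0006. The promoter of Cyp4f17 showed a peak in 6 STAT5_High and 10 STAT5_Low livers, with median scaled pileups of 2.08 and 1.96. That of Cyp4f16 had a peak in 1 STAT5_Low liver.

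Outside the promoters, the highest Cyp4f region lay over a coding exon of Cyp4f39 (chr17:32619960-32620667), a gene whose human counterpart CYP4F22 makes ultra-long acylceramides of the skin. Its mean fold enrichment, 12.3, was the largest among the family regions with a peak in every liver. Its median scaled pileup was 5.69 in STAT5_High and 5.40 in STAT5_Low livers, and the log2 difference of 0.08 had an adjusted p of 0.844 by limma. By presence, the Cyp4f region with the smallest p lay 4.6 kb upstream of Cyp4f17, with peaks in 1 STAT5_High and 4 STAT5_Low livers (p = 0.314 by Fisher's exact test, 0.673 after adjustment). Cyp4f18, a neutrophil enzyme of leukotriene breakdown that lies away from the cluster on chromosome 8, had no region within 10 kb although 92.4% of its 40-base words are unique. Cyp4f40 had 1 region, which it shared with Cyp4f15.

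The Cyp3a subfamily held 27 of the 72 regions, on mouse chromosome 5. A peak was present in a larger share of STAT5_Low than of STAT5_High livers at 23 of the 27 (85.2%), in a larger share of STAT5_High livers at 1, and in equal shares at 3, while 57.4% of all regions had a peak more often in STAT5_Low. Many of these regions were rarely called: 13 of the 27 had a peak in 1 to 4 livers. All of the 13 but the Cyp3a44 region had it in STAT5_Low livers only. In 1 liver alone were 7 (25.9%), against 21.6% of all regions. The mean share of livers with a peak was 30.1% in STAT5_High and 51.5% in STAT5_Low over the Cyp3a regions, and 46.3% and 52.8% over all regions. Counted by liver, STAT5_High livers had a peak at 10, 8, 8, 3, 8, 9, 9 and 10 Cyp3a regions in replicates 1 to 8, and STAT5_Low livers at 11, 13, 17, 15, 14, 6, 13, 22, 15 and 13 in replicates 1 to 10. STAT5_Low replicate 6 was the only STAT5_Low liver inside the range of the other class, and STAT5_Low replicate 8 was the highest. The regions share livers and lie side by side, so these counts describe the livers and no p is given for them.

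Class medians of depth and list length differed in the same direction as these counts. STAT5_Low libraries had a higher median number of tags. They had a peak at a median of 36115 regions of the whole series, against 33618.5 in STAT5_High. The part of depth and list length in the counts was not tested by a fit. When each list was cut to as many top peaks as the shortest holds, 13 Cyp3a regions had a peak in some liver, of which 9 leaned to STAT5_Low and 2 to STAT5_High, with mean shares of 23.3% and 15.7% over the 27 regions, and 26.9% and 26.8% over all regions. At that list length, 39.6% of all regions that kept a peak in some liver leaned to STAT5_Low, against these 9 of 13. Without STAT5_High replicate 4 the count was 22 of 27 (81.5%) and that over all regions 46.9%. Without STAT5_Low replicate 8 it was 19 of the 23 Cyp3a regions that then had a peak, against 55.5% of all regions that did.

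**Figure D3:**
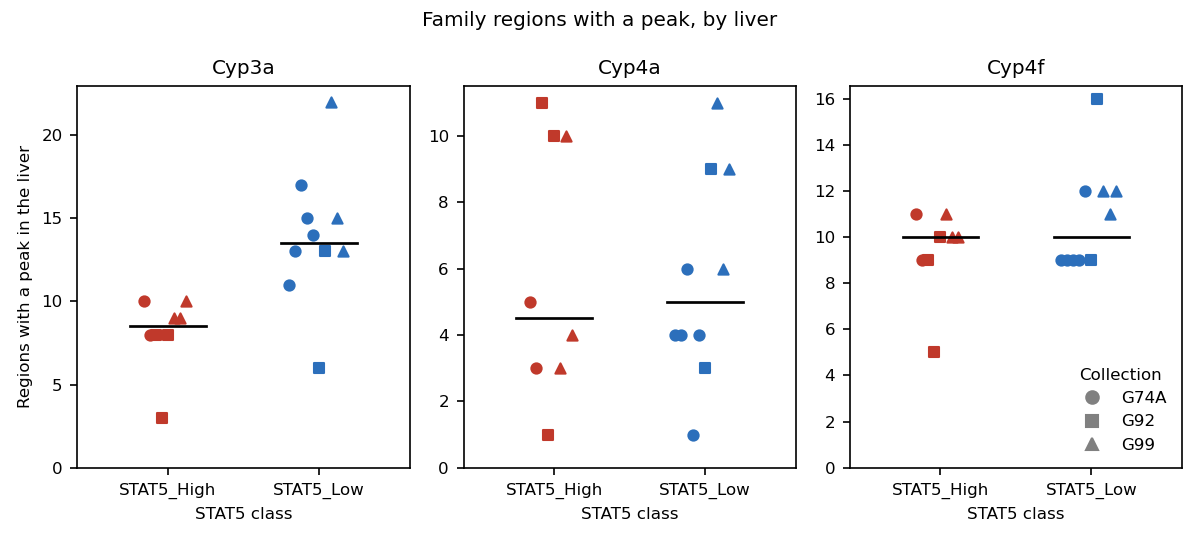
Number of Cyp3a, Cyp4a and Cyp4f regions with a peak in each liver, by STAT5 class, with a marker for the collection and a black line at the class median. STAT5_High livers had 3 to 10 Cyp3a regions (median 8.5) and STAT5_Low livers 6 to 22 (median 13.5), whereas the Cyp4a counts ran from 1 to 11 in both classes.

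Cyp3a11, the main PXR-induced drug-oxidising Cyp3a gene of adult mouse liver, had 7 regions. At its start (chr5:146691224-146691788) 2 STAT5_High and 8 STAT5_Low livers showed a peak (p = 0.0536 by Fisher's exact test, 0.337 after adjustment). Its scaled pileups, where called, were 1.03 and 1.45 in STAT5_High and 1.03 to 4.19 (median 1.74) in STAT5_Low livers, so the called values overlapped at their low end. A region 1.4 kb upstream (chr5:146692531-146693433) had a peak in every liver, with scaled pileups of 2.38 to 4 (median 2.93) in STAT5_High and 2.79 to 6.28 (median 3.64) in STAT5_Low livers. The log2 difference was -0.27 ± 0.21 with an adjusted p of 0.538 by limma, and on the authors' fold enrichment its sign turned, to 0.22. The other 5 regions had a peak in 1 to 3 livers, all of them STAT5_Low. STAT5_Low replicate 8 had a peak at each of those 5.

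Cyp3a25, an adult liver gene near the end of the cluster, had the most regions of any member, 9. At 8.8 kb upstream (chr5:146829773-146830170) 3 STAT5_High livers and 8 STAT5_Low livers had a peak (p = 0.145 by Fisher's exact test, 0.484 after adjustment), and at its promoter (chr5:146821167-146821413) 4 and 8 did (p = 0.321, adjusted p = 0.673). Beyond its 3′ end (chr5:146786482-146787422) all 10 STAT5_Low livers and 5 STAT5_High livers had a peak, with median scaled pileups of 3.13 and 2.51. Of its 9 regions, 5 had a peak in STAT5_Low livers only, in 1 to 4 of them. Of the 9 regions 3 entered the presence test, and none of them was called.

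The copy of the upstream region beside Cyp3a59 (chr5:146881764-146882148), shown above, had the smallest presence p of the family, with peaks in 0 STAT5_High and 7 STAT5_Low livers (p = 0.00402 by Fisher's exact test, 0.115 after adjustment). Its scaled pileups were low, 0.656 to 0.837 (median 0.708) where a peak was called, in all 3 collections. In G74A 4 of 5 STAT5_Low livers had it, in G92 1 of 2 and in G99 2 of 3, and no STAT5_High liver did. The authors' lists on pooled reads had a peak there in both classes, with a scaled pileup of 0.319 for STAT5_High and 0.606 for STAT5_Low. Its smallest and largest adjusted p without 1 liver in turn were 0.0701 and 0.234. The promoters of Cyp3a25 and Cyp3a59 are copies too, 96.0% identical over 247 aligned columns, and that of Cyp3a59 showed a peak in 5 STAT5_High and 9 STAT5_Low livers, with median scaled pileups of 1.13 and 1.55. Of the 40-base words, 79.8% and 73.2% of those of the promoter regions of Cyp3a25 and Cyp3a59 are unique, against 96.7% and 96.5% in the upstream copies.

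Cyp3a13, which lies apart from the cluster and is also active in the intestine, had the highest promoter of the family (chr5:138362567-138363893). Its scaled pileup ran from 5.36 to 15.6 (median 6.43) in STAT5_High and from 3.72 to 8.53 (median 4.83) in STAT5_Low livers, and its mean level stood at the 84.4 percentile of regions with a peak in every liver. The log2 difference of 0.46 ± 0.23 had an unadjusted p of 0.0501 and an adjusted p of 0.373 by limma, and the classes overlapped. Without STAT5_High replicate 5 the difference was 0.30, and on fold enrichment it was 0.12. Within its body a coding exon showed a peak in 6 STAT5_High and 10 STAT5_Low livers. Cyp3a57 had 1 region, its promoter, with peaks in 2 STAT5_High and 4 STAT5_Low livers (adjusted p = 0.855, Fisher's exact test).

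Members known to be female-biased in mouse liver, Cyp3a16, Cyp3a41a, Cyp3a41b, Cyp3a44, Cyp4a10 and Cyp4a14, were followed as a group in these male livers. They had 9 regions, of which 3 had a peak more often in STAT5_High, 5 in STAT5_Low and 1 in equal shares, and the mean share of livers with a peak was 50% in both classes. Of the 9 regions 4 entered a main test, and none of them was called. Cyp3a16 had a region 38.5 kb downstream of its start, beyond the gene (chr5:146191742-146192372), with a peak in every liver and median scaled pileups of 1.41 and 1.27. Cyp3a44 had 1 region, in an intron, with a peak in 2 STAT5_High livers, and the Cyp3a41 genes had none. The male-biased copies Cyp4a12a and Cyp4a12b, which hydroxylate arachidonic acid, had 2 regions between them, both at Cyp4a12a. The promoter region of Cyp4a12a had a peak in 1 STAT5_High liver and a coding exon in 2, with scaled pileups of 0.716 to 0.817, and no STAT5_Low liver had either. These peaks were all in collection G92, and the lists on pooled reads had a peak at the exon in both classes, at 0.342 for STAT5_High and 0.265 for STAT5_Low.

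How much of a gene the reads can reach bears on those low counts, because the file headers name the aligned reads as uniquely mapped and the tags were 40 bases long. The share of 40-base words found once in the genome, over the gene and 10 kb on each side, was 24.4% for Cyp3a41a, 25.5% for Cyp3a41b, 45.7% for Cyp4a12a, 54.8% for Cyp3a44 and 55.7% for Cyp4a12b. In the 2 kb around the start it was 14.4%, 13.4%, 33.7%, 80.3% and 34.7% in the same order. The promoters of the Cyp4a12 copies are 97.5% identical over 277 aligned columns. The other 21 genes had 66.1% to 97.8% of their words unique. Of the 72 regions, 15 (20.8%) had less than 90% of their words unique, against 1.40% of all regions. An absent peak at such a gene cannot be told apart from reads that could not be placed.

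**Figure D4:**
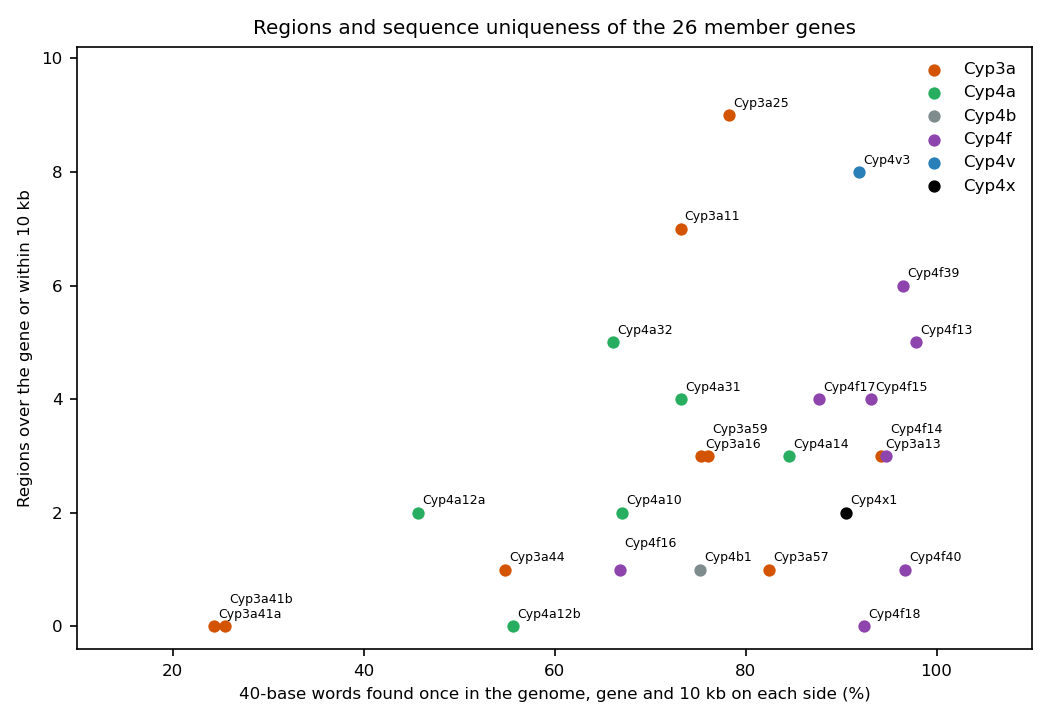
Number of regions over each member gene or within 10 kb, against the share (%) of 40-base words in that window that occur once in the genome. Cyp3a41a and Cyp3a41b, at 24.4% and 25.5%, have no region, and Cyp4f18 has none at 92.4%.

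The Cyp4a subfamily, fatty acid omega-hydroxylases under PPARα in mouse liver, held 16 regions on chromosome 4 and none was open in every liver. A peak was present more often in STAT5_High at 7 of them and in STAT5_Low at 8, and the mean share of livers with a peak was 36.7% and 35.6%. The spread lay within the classes: STAT5_High livers had a peak at 5, 3, 11, 1, 10, 3, 10 and 4 Cyp4a regions in replicates 1 to 8, and STAT5_Low livers at 4, 4, 6, 1, 4, 3, 9, 11, 6 and 9 in replicates 1 to 10. In each class 3 livers had 9 or more of them and the others had 6 or fewer. Those with 9 or more were all of collections G92 and G99. The livers of G74A, and the other livers of G92 and G99, had 1 to 6.

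The Cyp4a region open in most livers lay 1.6 kb upstream of Cyp4a14 (chr4:115169903-115170704), with peaks in 7 STAT5_High and 10 STAT5_Low livers and median scaled pileups of 1.77 and 1.38. With livers that lack a peak left out, its log2 difference was 0.28 ± 0.25 with an adjusted p of 0.629 by limma. Another, 12.6 kb downstream of the start of Cyp4a14 (chr4:115155871-115156433), showed a peak in 4 STAT5_High and 0 STAT5_Low livers, too few livers for the presence test. Cyp4a10 had a region 1.1 kb downstream of its start with peaks in 6 STAT5_High and 7 STAT5_Low livers and median scaled pileups of 1.45 and 1.06. The promoter region of Cyp4a31 showed a peak in 3 STAT5_High and 3 STAT5_Low livers, and that of Cyp4a32 in 4 of 8 and 7 of 10. A second region within 1 kb of the Cyp4a32 start, 0.8 kb downstream of it (chr4:115274282-115274538), ran the other way, with peaks in 3 STAT5_High livers, all of collection G92, and in 0 STAT5_Low livers. The promoter region of Cyp4a14 (chr4:115168797-115169004) had a peak in 1 STAT5_Low liver, with a scaled pileup of 1.10. By presence, the smallest p of the subfamily was at an intron of Cyp4a31, with peaks in 1 STAT5_High and 5 STAT5_Low livers (p = 0.152 by Fisher's exact test, 0.484 after adjustment).

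Regions of the Cyp4a cluster were copies of each other too. Of the 13 pairs of regions that aligned over at least 150 columns with at least 80% identity, 7 were in Cyp4a and 6 in Cyp3a, and none in Cyp4f. The region 4.2 kb upstream of Cyp4a10 was 91.6% identical to that 4.0 kb upstream of Cyp4a32, yet the former showed a peak in 1 STAT5_High and 4 STAT5_Low livers and the latter in 7 of 8 and 9 of 10. Of their 40-base words, 83.3% and 93.0% were unique.

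Among the remaining members, the mean share of livers with a peak was 62.5% in both classes at Cyp4v3, and lower in STAT5_High than in STAT5_Low at Cyp4b1 (12.5% and 40%) and Cyp4x1 (12.5% and 35%). Cyp4v3, the mouse counterpart of the human retinal-disease gene CYP4V2, had 8 regions on chromosome 8, of which 3 had a peak in every liver. Its promoter (chr8:46418186-46419192) had median scaled pileups of 2.73 and 3.01, with a log2 difference of -0.07 ± 0.21 and an adjusted p of 0.849 by limma. The highest of the 3, in an intron 3.7 kb downstream of the start, had medians of 4.97 and 4.71 (log2 difference -0.17, adjusted p = 0.706, limma), and that 8.8 kb downstream had the smallest p, with a log2 difference of -0.36 ± 0.23 and an adjusted p of 0.491. That difference was -0.17 without STAT5_High replicate 4 and -0.0068 on fold enrichment. Its other 5 regions had a peak in 1, 16 or 17 livers. The region farthest from its start, 28.6 kb downstream, lay in an intron of the neighbouring gene Klkb1, and the one farthest upstream, at 9.0 kb, over a coding exon of Fam149a.

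Cyp4b1, an enzyme of the lung that hydroxylates fatty acids, had 1 region with peaks in 1 STAT5_High and 4 STAT5_Low livers (Fisher's exact adjusted p = 0.673). Cyp4x1, which is best known from brain, had 2 regions, and at the more frequent of them a peak showed in 2 of 8 and 6 of 10 livers (adjusted p = 0.531, Fisher's exact test). Scaled pileups at the Cyp4b1 and Cyp4x1 regions stayed under 1 in every liver with a peak.

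Sequence motifs were searched as letters on both strands. The STAT5 motif TTCNNNGAA was found in 14 of the 72 family regions (19.4%) and in 20.3% of all regions. The region of Cyp4a10 held 3 matches and no other family region held more, and these are shown in capitals (chr4:115191885-115192184, plus strand), with the match in the open region upstream of Cyp3a11 (chr5:146692575-146692694, minus strand).
Cyp4a10 downstream: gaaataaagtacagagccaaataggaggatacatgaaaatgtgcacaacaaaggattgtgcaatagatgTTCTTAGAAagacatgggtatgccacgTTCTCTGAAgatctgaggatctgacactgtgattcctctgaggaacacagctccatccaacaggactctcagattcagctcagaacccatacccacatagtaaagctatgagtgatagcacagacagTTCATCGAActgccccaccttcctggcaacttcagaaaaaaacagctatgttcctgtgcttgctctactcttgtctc
Cyp3a11 upstream: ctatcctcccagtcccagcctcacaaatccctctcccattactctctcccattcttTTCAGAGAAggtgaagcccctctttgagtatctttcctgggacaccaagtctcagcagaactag
Direct repeats of the nuclear receptor site AGGNCA were rare. A spacer of 1 base (DR1, the arrangement bound by PPARα with RXR) was found in 2 family regions (2.78%), at Cyp3a16 and Cyp4f39, and in 2.15% of all regions. A spacer of 4 bases (DR4) was found in 1 family region (1.39%), the Cyp4f14 promoter, and in 1.02% of all regions. A spacer of 3 bases (DR3) and the everted repeat with 6 bases (ER6), both bound by PXR with RXR, had 0 matches in the family, against 0.619% and 0.241% of all regions. No match says only that these letters are not in these windows.

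Genes that work with the family were counted from lists. Of 14 partners and regulators (the reductase Por, the cytochrome b5 genes, heme enzymes and nuclear receptors), 13 matched the annotation, with 136 regions. Fisher's exact test called 0 of 27 of these by presence in either direction (0.979% and 0.134% of all regions), and limma called 1 of 39 higher in STAT5_High and 0 higher in STAT5_Low, with a median log2 difference of -0.20 over the 39. Over all regions limma called 3.86% higher in STAT5_High, which 1 of 39 does not exceed. The called region was at Nr1h4, which encodes the bile acid receptor FXR (chr10:88933220-88934094), with scaled pileups of 5.47 to 12.95 (median 7.51) in STAT5_High and 2.65 to 7.25 (median 4.77) in STAT5_Low livers, a log2 difference of 0.84 ± 0.22 and an adjusted p of 0.0158. Of 18 genes of fatty acid oxidation with 104 regions, 0 of 17 were called by presence, and limma called 1 of 24 higher in STAT5_High and 0 higher in STAT5_Low, against the same 3.86% and 0.238% of all regions. That region was at Cpt1a, the carnitine palmitoyltransferase of mitochondrial fatty acid import (chr19:3353381-3354340), with values of 1.67 to 7.40 (median 2.50) and 0.835 to 2.06 (median 1.32), a log2 difference of 1.16 ± 0.24 and an adjusted p of 0.000664. The classes overlapped at both regions.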

How the data were processed

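DNase-seq peak lists of 18 livers, 8 STAT5_High and 10 STAT5_Low, were used as the authors deposited them. Per the file headers, peaks were called for each liver with MACS2 2.1.0.20150731 on uniquely mapped reads, with a tag size of 40, no control library, a shift of -100, an extension of 200 and a q cutoff of 0.05. The submitters' processing notes name Bowtie2 and the mouse build mm9. The deposited pileup is a signal, the number of extended reads at the summit. The authors' fold enrichment is a ratio of the summit to the background around it in that library, and their −log10 q is the significance of a peak within its library. The lists on pooled reads of a class were used for description only.

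Peaks sharing 1 bp or more were merged into 68362 regions with a median width of 546 bp. Pileup was scaled to 1000000 of the tags given in the header, and the highest peak of a liver in a region was used. Presence was tested by Fisher's exact test (two-sided) at the 15631 regions with a peak in 5 to 13 livers, a filter that 18 of the 72 family regions passed. Pileup was tested with limma 3.58.1 (R 4.3.3, with trend, on log2 values with no pseudocount) at the 11748 regions with a peak in all 18 livers, of which 11 are family regions. A region with an absent peak has no pileup, so a weak signal below the caller's limit is not measured. On simulated data, 200 of 200 complete differences in presence were recovered at 15631 regions, with 1 other call, and 198 of 200 planted 3-fold changes in pileup at 11748 regions, with 4 others. Partial differences in presence and changes in pileup of less than 3-fold were not simulated, so this recovery does not cover them. Values were shuffled between livers region by region, which removes what regions of the same liver or collection share. Word uniqueness, motifs and alignments (Biopython) used the mm9 reference, and variants of the outbred stock were not considered.

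The members and lists were chosen with earlier results of these data known. Regions were named in full by a rule: the promoter region of each gene (within 1 kb of a start, that with the highest mean pileup if several), every region past a threshold, and in each subfamily the region with the smallest p of each test and that with the highest mean pileup. Other regions named were picked after their values were seen. Alternatives covered peak score, list length, overlap, scaling, filters, distance from the gene, collection, the replicate number and leaving out each liver. The 3 livers titled outlier were not analysed here.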

Additional observations from a re-analysis of the deposited data

Results flagged for a closer look

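Values that stood apart from the rest of their class by Dixon's criterion were looked for in 32 groups of 8 or 10 livers, and 8 were found. Chance gives about 1 in 20 groups for independent continuous values. Some groups here are whole counts with ties, and all share the same livers, so that rate does not apply. STAT5_High replicate 4, the library with the shortest peak list, had a peak at 13 family regions, 3 Cyp3a regions and 5 Cyp4f regions, the lowest of its class each time. STAT5_Low replicate 7 had a peak at 16 Cyp4f regions, the highest of its class. For Cyp4v3, STAT5_Low replicate 4 had a peak at 4 regions and STAT5_Low replicate 9 at 6, while the other 8 livers of that class had 5. At the Cyp4f13 intron region that differed between the classes, the scaled pileup of STAT5_Low replicate 10 was 2.95, above 5 of the 8 STAT5_High livers. Without that liver the log2 difference was 1.29, with an adjusted p of 0.000178 by limma. At the region 1.4 kb upstream of Cyp3a11, STAT5_Low replicate 8 had a scaled pileup of 6.28, the highest of all livers.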

How the results depend on the processing

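The count of family regions called stayed at 0 by presence in both directions and at 1 and 0 by pileup under every alternative run, also with regions over the gene bodies alone (0 kb) or within 50 kb. For the Cyp4f13 intron, the log2 difference was 0.63 on fold enrichment and 0.92 with a pseudocount of 0.5, and 1.02 to 1.32 without each liver in turn, with adjusted p of 6.24e-05 to 0.00972. Centring each library on its median gave 1.28, and quantile normalization 1.23. The whole-table presence calls, 153 and 21, fell to 0 and 0 when stratified by collection, and the cause was not tested. The collections hold 2 and 5, 3 and 2, and 3 and 3 livers of the classes. With so few, no region can pass adjustment over 15631 regions in the stratified test unless many differed alike. The 0 family calls of the stratified test therefore carry no weight. Whole-table presence calls were also 0 and 0 in the sign test with the replicate block. That test has at most 8 pairs, too few for a region to pass adjustment over 15631 regions unless very many differed alike. Its 0 family calls therefore carry no weight. With the replicate block limma gave 1.32 for the Cyp4f13 intron and 1 family call, and 105 calls higher in STAT5_Low in the whole table, against 28. Same-numbered livers of the same collection (replicates 1, 2 and 8) correlated at 0.378, 0.370 and 0.376, and those of different collections from -0.158 to 0.184. Only 2 of 8 STAT5_High livers correlated best with their own number, so the numbers were not taken as pairs. The main tests carried no term for collection. With collection as a term, limma gave a log2 difference of 1.06 at the Cyp4f13 intron, with an adjusted p of 0.0016.

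The Cyp3a count leaning to STAT5_Low, 23 of 27, was examined under alternatives chosen after seeing the data. With equal numbers of top peaks it was 9 of the 13 regions that keep a peak. Without each liver in turn it was 19 to 23. The 19, without STAT5_Low replicate 8, were of 23 regions that keep a peak. Uncalled differences changed sign as follows, and the cause was not tested. The Cyp4a32 promoter moved to 7.5 percentage points with equal numbers of top peaks, and the Cyp4a31 promoter ran from -1.43 to 15.3 without each liver. The log2 difference turned to 0.22 on fold enrichment upstream of Cyp3a11, and to 0.0925 on fold enrichment at the Cyp4v3 intron 3.7 kb from the start. At the Cyp4v3 promoter it turned to 0.0414, 0.0324 and 0.157 with library medians, quantile normalization and fold enrichment. Without each liver in turn it ran from -0.38 to 0.0295 at Cyp4f14, from -0.25 to 0.0336 at the Cyp4v3 intron and from -0.16 to 0.0302 at the Cyp4v3 promoter. Depth limits what an absent peak means: a weak site can be open and lack a peak, and at near-identical copies reads cannot be placed.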
